A study of Arabidopsis thaliana with 18 samples.

Results

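The comparison asked whether the response of Arabidopsis shoots to the root-colonizing fungus *Serendipita indica* differed between 28 and 25°C. For each gene it is the interaction (Si minus CK at 28°C) minus (Si minus CK at 25°C) on the scale log2(TPM + 1). TPM is a measure of transcript abundance corrected for gene length and for the total of a sample. Si are plants cocultured with the fungus and CK are controls without it. The interaction rests on 3 replicates in each of 4 groups, 12 of the 18 samples of the series, and on the 20044 of 33039 genes that had at least 1 TPM in at least 3 of the 18 samples. A positive interaction means that the Si minus CK difference was higher at 28°C, and a negative interaction that it was lower. A value of 1 on this scale is a doubling for a well expressed gene and more than that for a gene of low TPM.

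All plants were wild-type Col-0 seedlings, first grown at 22°C and inoculated, or kept as controls, when 9 days old. They were then grown for 7 days more at the temperature of their group, with a 12 h photoperiod. The 4 groups compared were CK and Si at 25°C and CK and Si at 28°C, and CK and Si plants at 22°C are given beside them where they help to place a value. RNA came from whole aboveground parts, so that fewer cells of a type and less RNA per cell cannot be told apart, and the fungus itself sat in the roots. The labels call the samples biological replicates without naming separate plates or plants, and p-values measure only the spread between these samples.

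Roots that meet a fungus sense chitin and other microbial patterns through receptor-like kinases, and a shoot far from the colonized tissue can still switch on salicylic acid (SA), N-hydroxypipecolic acid, and indolic defenses. Warm, non-stressful temperatures instead start thermomorphogenesis, the elongation program driven by the transcription factor PIF4, and warmth above the usual growth range is known to dampen SA immunity in Arabidopsis. Growth itself draws on DNA replication, ribosomes, cell wall loosening, and nitrate assimilation, while low sugar calls up genes that recycle amino acids.

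Samples within a group were alike, with Pearson correlations of log2 values between replicates from 0.976 to 0.984 across genes. The number of genes with at least 1 TPM rose from 17814 to 18035 in CK and 18799 to 18918 in Si at 25°C to 18340 to 18533 in CK and 19271 to 19509 in Si at 28°C. Median-of-ratios factors, which compare the typical gene between samples, went the same way, from 0.881 to 0.925, 1.098 to 1.106, 0.982 to 1.02, and 1.17 to 1.21 in these groups in that order. The summed level of 4 green tissue markers, LHCB1.1, LHCB2.1, RBCS1A, and RCA, lay between 18095 and 22199 TPM in the 12 samples at 25 and 28°C. Of 16 root markers, only PYK10, CASP1, and NRT2.1 passed the filter, and root hair genes such as PRP3, EXPA7, and COBL9 stayed at or below 0.45 TPM in these samples.

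The S. indica effect was higher at 28 than at 25°C for 655 genes, 3.27% of those tested, and lower for 1067 genes, 5.32%, by limma with Benjamini-Hochberg adjustment and a limit of 0.05. How many calls fell on each side changed with the scaling of the samples. With median-of-ratios scaling, 729 genes were higher and 751 lower, so that the share of higher calls went from 38.04% to 49.3%, and 621 of the 655 and 746 of the 1067 genes were called again in the same direction. The median interaction over all genes tested was -0.04, with a median SE of 0.16. Large interactions were mostly positive, since 202 of the higher and 80 of the lower genes had an absolute value above 1.

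**Figure D1:**
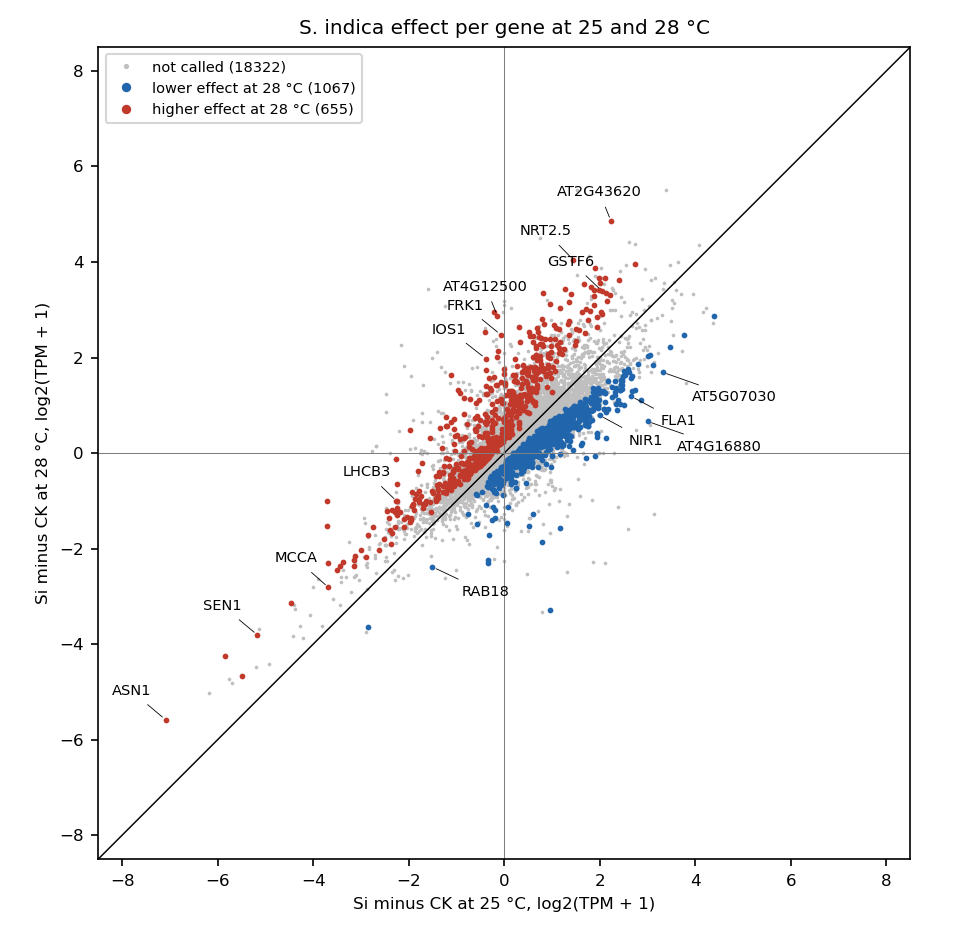
The Si minus CK difference at 25°C (horizontal axis) against that at 28°C (vertical axis), both in log2(TPM + 1), for each of the 20044 genes tested, with the 655 higher genes in red, the 1067 lower genes in blue, and equal effects on the diagonal. ASN1 and SEN1 lie far down on the left, repressed at both temperatures, and NRT2.5 and AT2G43620 far up, induced more at 28°C. AT2G08665, named because it lies outside the axes, was listed at 0 in a whole group.

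The interaction is also the change of Si from 25 to 28°C minus that of CK. The choice of higher and lower genes thus fixes in part how their levels move with temperature. The following counts describe the members without a test. Among the 655 higher genes, 498 had a lower level at 28 than at 25°C in CK and a higher level in Si, 121 had a higher level in both, and 34 a lower level in both, beside 3058, 11154, and 2431 of all 20044 genes. Their median change from 25 to 28°C was -0.21 in CK and 0.39 in Si, and their median S. indica effect went from -0.28 to 0.30. Of the 655, 235 had a positive effect at both temperatures, 238 a negative effect at both, and 180 went from negative at 25°C to positive at 28°C. Among all 20044 genes these were 12753, 4134, and 1525. Among the 1067 lower genes, 659 had a higher level at 28°C in CK and a lower level in Si, beside 3327 of all genes, and 299 had a higher level in both. Here the median change from 25 to 28°C was 0.35 in CK and -0.14 in Si, and the median effect went from 0.67 to 0.18. For 699 of the 1067 genes the effect was positive at both temperatures, beside 12753 of all 20044 genes, a similar share. A smaller induction, not a repression, was thus their most frequent pattern, but a positive effect at both temperatures was about as frequent among all genes. The plants at 22°C took no part in this contrast. Their S. indica effect was nearer to that at 25°C than to that at 28°C for 438 of the 655 and 733 of the 1067 genes, beside 10685 of all 20044.

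Leading genes are called genes with a mean of at least 5 TPM, at least 200 bases, and no group listed at 0. Their call also held with each of the 12 samples left out, and called genes outside this rule can have larger values. Among leading genes, the largest higher interactions included receptors and enzymes of immunity. FRK1 (AT2G19190), a receptor-like kinase that flagellin induces and an early marker of pattern-triggered immunity, was at 6.21, 9.17, and 7.65 TPM in CK plants at 25°C, 4.55, 10.6, and 7.46 in Si plants at 25°C, 3.56, 2.81, and 2.63 in CK plants at 28°C, and 24.9, 17.1, and 22.3 in Si plants at 28°C. The Si samples at 28°C stood above all 9 others, while CK and Si overlapped at 25°C. Its interaction was 2.55 ± 0.45 (SE, adjusted p = 0.0044), made up of an effect of -0.07 at 25°C and 2.48 at 28°C, and the effect at 22°C was 0.58. IOS1 (AT1G51800), a leucine-rich repeat receptor kinase that primes this immunity, was at 7.17, 7.85, and 8.15 TPM in CK plants at 25°C, 4.81, 6.79, and 5.49 in Si plants at 25°C, 5.11, 4.31, and 3.91 in CK plants at 28°C, and 25, 17.9, and 18.9 in Si plants at 28°C. As in FRK1, the lowest Si sample at 28°C was above every sample of the other groups, and the interaction was 2.37 ± 0.40 (SE, adjusted p = 0.0037). MLO12 (AT2G39200), a membrane protein of the family in which loss of function gives powdery mildew resistance, was at 6.59, 9.04, and 7.7 TPM in CK plants at 25°C, 5.49, 8.92, and 6.35 in Si plants at 25°C, 5.2, 3.52, and 3.84 in CK plants at 28°C, and 24.1, 15.71, and 19.9 in Si plants at 28°C. Again Si at 28°C did not overlap any other group, and the interaction was 2.17 ± 0.43 (SE, adjusted p = 0.008). FRK1 and MLO12 each overlap a gene on the opposite strand, and the counting is not stated to use strand, so that their reads cannot be told apart from those of the overlapping gene.

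The promoters of these 3 genes are shown because each holds the W-box core TTGAC, the letters that WRKY transcription factors bind. The sequences are the 250 bases before the annotated start, written 5′ to 3′ on the strand of the gene, from the RefSeq genome and annotation of assembly TAIR10.1, with W-box cores of either strand (TTGAC or GTCAA) in capitals.
FRK1, chr2:8329945-8330194, minus strand: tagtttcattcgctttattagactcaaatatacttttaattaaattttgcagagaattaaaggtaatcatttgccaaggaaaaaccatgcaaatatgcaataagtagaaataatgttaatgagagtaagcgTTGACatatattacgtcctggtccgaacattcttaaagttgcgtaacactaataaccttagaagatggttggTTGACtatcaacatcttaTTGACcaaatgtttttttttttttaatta
IOS1, chr1:19213822-19214071, plus strand: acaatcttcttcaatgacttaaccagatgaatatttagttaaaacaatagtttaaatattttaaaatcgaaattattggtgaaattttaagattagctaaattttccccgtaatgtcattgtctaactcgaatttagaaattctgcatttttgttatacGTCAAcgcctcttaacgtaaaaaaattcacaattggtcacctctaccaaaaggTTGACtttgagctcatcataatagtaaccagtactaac
MLO12, chr2:16359944-16360193, minus strand: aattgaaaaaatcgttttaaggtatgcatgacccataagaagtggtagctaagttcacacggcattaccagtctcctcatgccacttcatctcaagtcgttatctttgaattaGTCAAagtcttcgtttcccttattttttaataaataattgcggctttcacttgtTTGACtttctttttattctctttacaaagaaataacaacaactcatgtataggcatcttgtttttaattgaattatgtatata
FRK1 has 3 such cores, the nearest ending 25 bases before the start, and IOS1 and MLO12 have 2 each. Of the 8 leading genes with the largest higher interactions, NRT2.5 alone has none in this window. Among the 8 with the largest lower interactions, AT4G16880 and AT4G22475 have none, and the others have at least 1. The higher genes PBS3, FMO1, CBP60g, and PAD3, described below, have none. The core is in 44.8% of the promoters of all tested genes.

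AT2G43620, a chitinase family gene, was at 2.76, 7.48, and 4.75 TPM in CK plants at 25°C, 17.9, 38.6, and 24.5 in Si plants at 25°C, 5.83, 2.52, and 8.35 in CK plants at 28°C, and 215, 162, and 154 in Si plants at 28°C. Chitinases cut the chitin of fungal cell walls. Si lay above CK at both temperatures without overlap, and the interaction was 2.62 ± 0.54 (SE, adjusted p = 0.0095), from an effect of 2.23 to 4.86. AT4G12500, annotated as a lipid-transfer protein, was at 5.24, 16.1, and 14.6 TPM in CK plants at 25°C, 8.81, 14.8, and 6.95 in Si plants at 25°C, 3.76, 1.67, and 3.37 in CK plants at 28°C, and 29.3, 22.3, and 30.2 in Si plants at 28°C. CK and Si overlapped at 25°C and stood apart at 28°C, where CK samples were lower and Si samples higher than at 25°C, with an interaction of 3.02 ± 0.60 (SE, adjusted p = 0.0081). The uncharacterized genes AT1G21313 and AT5G44585 had interactions of 2.54 ± 0.49 (SE, adjusted p = 0.007) and 2.29 ± 0.37 (SE, adjusted p = 0.0031). AT1G21313 lies on the opposite strand of the extensin gene AT1G21310, and AT5G44585 also overlaps an opposite gene. All 8 genes of this group, NRT2.5 included, kept their call with each of the 12 samples left out in turn.

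**Figure D2:**
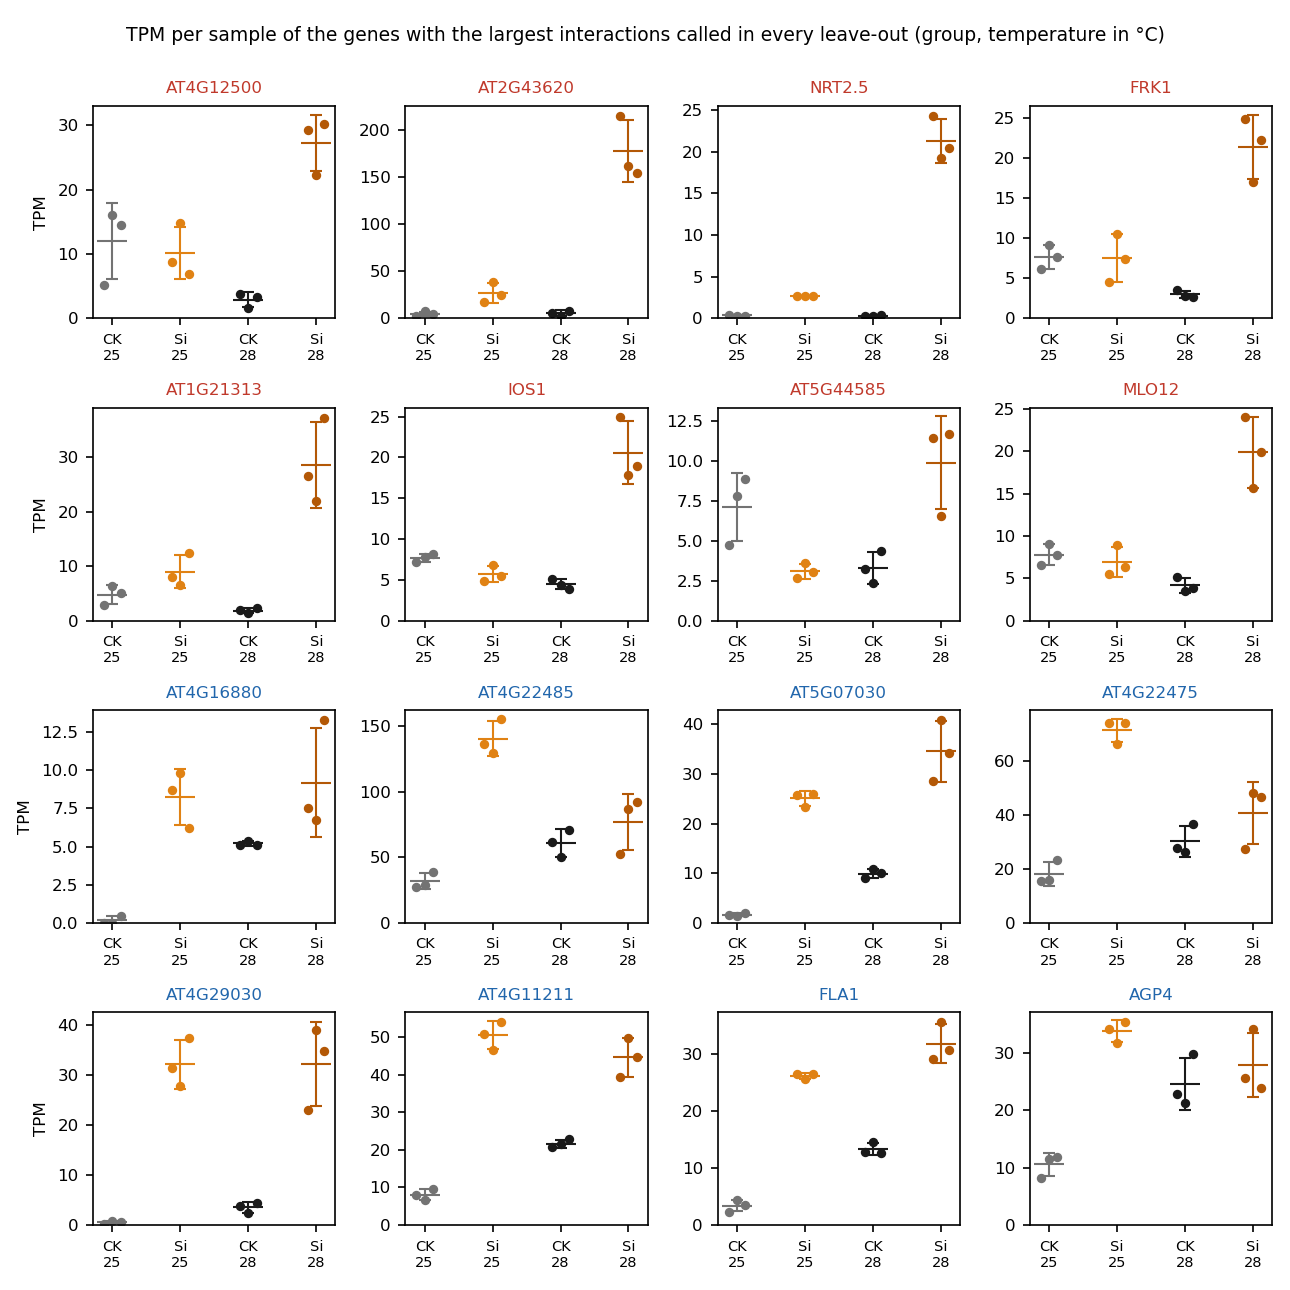
TPM of each of the 12 samples at 25 and 28°C (dots), with the mean and SD of 3 replicates (bar and error bar), for the 8 genes with the largest higher interactions (red titles) and the 8 with the largest lower interactions (blue titles) that passed the naming rule. Among the 4 groups shown, at 25 and 28°C, Si at 28°C is the highest in the red panels and CK at 25°C the lowest in the blue panels.

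The gene lists were chosen with earlier results of these data known, so that their counts only describe them. Genes of SA and N-hydroxypipecolate immunity leaned toward higher interactions. Of the 18 tested, 4 were higher, 22.2% beside 3.27% of all genes, none was lower beside 5.32%, and 16 had a positive interaction, with a median of 0.55 beside -0.04 over all genes. FMO1 (AT1G19250), which makes N-hydroxypipecolic acid, was at 0.03, 0.03, and 0.17 TPM in CK plants at 25°C, 0.18, 0.86, and 0.48 in Si plants at 25°C, 0.07, 0.12, and 0.13 in CK plants at 28°C, and 4.03, 2.11, and 2.02 in Si plants at 28°C. Only Si at 28°C reached 1 TPM, so that FMO1 passed the filter through that group alone and does not add to the count of the list, which is 3 without it. The interaction was 1.25 ± 0.28 (SE, adjusted p = 0.015). CBP60g (AT5G26920), a transcription factor of SA genes, was at 9.36, 9.94, and 16.1 TPM in CK plants at 25°C, 7.85, 13, and 10.7 in Si plants at 25°C, 6.72, 7.36, and 6.19 in CK plants at 28°C, and 16.6, 13.2, and 16.8 in Si plants at 28°C, with an interaction of 1.23 ± 0.27 (SE, adjusted p = 0.013). Its level at 28°C was lower than at 25°C in CK and higher in Si, and the Si plants at 22°C, with an effect of 1.29, were above those at 28°C. PBS3 (AT5G13320), which conjugates isochorismate to glutamate on the way to SA, had an interaction of 1.62 ± 0.38 (SE, adjusted p = 0.018), with an effect of -0.58 at 25°C and 1.04 at 28°C. The call of PBS3 was lost without Si replicate 1 at 25°C, with an adjusted p of 0.053. ICS1 (AT1G74710), isochorismate synthase, was the fourth, with 0.75 ± 0.20 (SE, adjusted p = 0.034), called in 2 of the 12 fits with 1 sample left out. With a pseudocount of 0.1 FMO1, a gene of low TPM, had an adjusted p of 0.16.

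Camalexin, the main indolic phytoalexin of Arabidopsis, had the list with the highest median, 1.36. Of its 7 genes 3 were higher (42.9%, beside 3.27% of all genes) and none lower. GSTF6 (AT1G02930), a glutathione transferase of this pathway, was at 119.5, 98.4, and 105 TPM in CK plants at 25°C, 391, 494, and 452 in Si plants at 25°C, 76.8, 76.6, and 97.3 in CK plants at 28°C, and 951, 808, and 899 in Si plants at 28°C. Si was above CK at both temperatures, with an effect of 2.04 at 25°C and 3.40 at 28°C, and the interaction was 1.36 ± 0.23 (SE, adjusted p = 0.004). PAD3 (AT3G26830), the cytochrome P450 of the last step, was at 1.98, 0.3, and 1.4 TPM in CK plants at 25°C, 6.43, 9.2, and 9.02 in Si plants at 25°C, 1.2, 0.13, and 1.6 in CK plants at 28°C, and 21.1, 21.7, and 25.6 in Si plants at 28°C, and CYP71A12 (AT2G30750), which makes indole-3-acetonitrile compounds, was at 7.86, 11.3, and 13.4 TPM in CK plants at 25°C, 28.9, 57.5, and 46.3 in Si plants at 25°C, 3.28, 3.72, and 3.91 in CK plants at 28°C, and 54, 53.8, and 104 in Si plants at 28°C. Si samples at 28°C were higher than those at 25°C in PAD3, while CYP71A12 overlapped between them and fell in CK instead. Their interactions were 1.55 ± 0.44 (SE, adjusted p = 0.038) and 1.97 ± 0.52 (SE, adjusted p = 0.029), but they were called in only 3 and 6 of the 12 fits that left out 1 sample, with adjusted p up to 0.1 and 0.081, both without Si replicate 1 at 25°C. PAD3 also lost its call with a pseudocount of 0.5 or 0.1 (adjusted p = 0.092 and 0.21), without a filter (0.057), in a fit of the 4 groups alone (0.06), and, just above the limit of 0.05, with median-of-ratios scaling. CYP71A12 has a transcript with 90.8% identity, AT1G11610, that may share its reads. CYP82C2, of the same list, had the largest value, 3.97 ± 1.32, and was not called (adjusted p = 0.077).

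Some families stood out by the words of their product names. They were picked after the values were seen and, like the gene lists, carry no weight of their own. Their counts stand beside 3.27% higher and 5.32% lower among all genes tested. Of 29 cysteine-rich receptor-like kinases tested, 8 were higher and none lower, with a median interaction of 0.42. CRK15 and CRK24 reached 1 TPM in Si at 28°C only and passed the filter through that group alone, which leaves 6. CRK5 (AT4G23130) was at 0.69, 0.55, and 0.69 TPM in CK plants at 25°C, 3.98, 5.05, and 4.15 in Si plants at 25°C, 0.93, 0.97, and 1.27 in CK plants at 28°C, and 18.4, 15, and 13.8 in Si plants at 28°C, and its interaction was 1.31 ± 0.21 (SE, adjusted p = 0.0029). CRK6 (AT4G23140), its neighbour in a tandem cluster, was at 0.03, 0.03, and 0.02 TPM in CK plants at 25°C, 0.37, 1.26, and 0.78 in Si plants at 25°C, 0.15, 0.11, and 0.39 in CK plants at 28°C, and 5.68, 4.63, and 4.39 in Si plants at 28°C, with 1.496 ± 0.24 (SE, adjusted p = 0.0031). In both, the 3 Si samples at 28°C were several times above those at 25°C, while CK stayed near 1 TPM or below. CRK20 had 1.41 ± 0.23 (SE, adjusted p = 0.0029), and it has a transcript with 90.3% identity, AT4G23310.

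Of 17 berberine bridge enzyme-like oxidases, some of which make indolic or cell wall derived defense compounds, 7 were higher and 1 lower. These are 41.2% and 5.88%, beside 3.27% and 5.32% of all genes. The lower gene, AT5G44400, had -1.05, a call lost with each of the 12 samples left out. Among the higher genes, AT1G30720 had an effect of -1.80 at 25°C and -0.37 at 28°C. AT1G26390 was called in 3 of the 12 fits with 1 sample left out. AT1G26420 was at 4.77, 5.26, and 5.21 TPM in CK plants at 25°C, 8.83, 15.5, and 14.9 in Si plants at 25°C, 3.19, 2.8, and 2.35 in CK plants at 28°C, and 31.6, 25.3, and 33.1 in Si plants at 28°C, with an interaction of 1.86 ± 0.38 (SE, adjusted p = 0.009). Of 15 chitinases, 4 were higher (26.7%, beside 3.27% of all genes) and none lower. Among the 4 was AT1G02360 with 1.81 ± 0.27 (SE, adjusted p = 0.0022). Of 36 proteins with a cysteine and histidine rich C1 domain, 7 were higher (19.4%, beside 3.27% of all genes), and the family median was 0.13. The largest value was 2.11 ± 0.45 (SE, adjusted p = 0.011) in AT2G17740, from an effect of -0.38 to 1.73. In all 7 the effect was negative at 25°C and positive at 28°C, and CK was lower at 28 than at 25°C. AT2G42060, AT2G44370, and AT2G44380 were called in only 4, 2, and 3 of the 12 fits with 1 sample left out. GLIP1 (AT5G40990), a secreted lipase of systemic resistance, was at 0.08, 0.04, and 0.13 TPM in CK plants at 25°C, 2.94, 2.49, and 2 in Si plants at 25°C, 0.25, 0.2, and 0.19 in CK plants at 28°C, and 11.6, 13, and 15 in Si plants at 28°C. It was the only GDSL lipase called higher, with 1.87 ± 0.23 (SE, adjusted p = 0.00099), while 8 of the 52 tested were lower (15.4%, beside 5.32% of all genes). AGP5 (AT1G35230) was likewise the only arabinogalactan protein that was higher, with 1.65 ± 0.26 (SE, adjusted p = 0.0029).

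Among nitrogen genes, the transporter NRT2.5 was higher and 3 genes of the nitrate response list were lower. NRT2.5 (AT1G12940), a high-affinity nitrate transporter of nitrogen-starved plants, was at 0.45, 0.32, and 0.31 TPM in CK plants at 25°C, 2.73, 2.69, and 2.7 in Si plants at 25°C, 0.33, 0.33, and 0.39 in CK plants at 28°C, and 24.3, 19.2, and 20.4 in Si plants at 28°C. The CK samples did not differ between temperatures beyond their spread, the 3 Si samples at 25°C were nearly equal, and those at 28°C were far above. Its interaction of 2.59 ± 0.21 (SE, adjusted p = 4.4e-05) came with an effect of 0.68, 1.45, and 4.04 at 22, 25, and 28°C. NIR1 (AT2G15620), nitrite reductase, was at 38.8, 35.9, and 36.8 TPM in CK plants at 25°C, 143, 165, and 147 in Si plants at 25°C, 51.7, 57.5, and 40.9 in CK plants at 28°C, and 72.3, 91.3, and 97.2 in Si plants at 28°C. Here Si exceeded CK at both temperatures, but Si samples were lower at 28°C than at 25°C, and the interaction was -1.21 ± 0.22 (SE, adjusted p = 0.005). UPM1 (AT5G40850), which makes the siroheme cofactor of nitrite reductase, was at 23.65, 25.9, and 28.1 TPM in CK plants at 25°C, 88.2, 102, and 97.4 in Si plants at 25°C, 30.9, 39.2, and 38 in CK plants at 28°C, and 56.8, 72.9, and 77.9 in Si plants at 28°C, in the same order of groups, with -0.93 ± 0.17 (SE, adjusted p = 0.0049). LBD39 (AT4G37540), a repressor of nitrate-responsive genes, had -0.76 ± 0.22 (SE, adjusted p = 0.04). Its call was kept in 4 of the 12 fits with 1 sample left out and was lost with median-of-ratios scaling (adjusted p = 0.053). Over the nitrate response list, 3 of 13 genes were lower (23.1%, beside 5.32% of all genes) and none higher, and the median was -0.23. UPM1 overlaps a gene on the opposite strand.

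Called genes of amino acid catabolism and sugar starvation, CHY1 excepted, were lower in Si than in CK at both temperatures, and less so at 28°C. Of 15 genes for the breakdown of branched-chain amino acids and lysine, 7 were higher (46.7%, beside 3.27% of all genes) and none lower. Their median interaction was 0.53. With quantile normalization 4 were higher, without E1A1 (adjusted p = 0.067), MCCA (0.085), and ETFQO (0.069), and the median was 0.42. LKR (AT4G33150), the first enzyme of lysine breakdown, was at 173, 157, and 151 TPM in CK plants at 25°C, 39.3, 48.2, and 44.6 in Si plants at 25°C, 88.9, 104, and 84.8 in CK plants at 28°C, and 55.6, 46.4, and 49 in Si plants at 28°C. CK samples were lower at 28°C, while Si samples overlapped between temperatures, and the interaction was 0.98 ± 0.16 (SE, adjusted p = 0.0032). MCCB, the beta subunit of methylcrotonyl-CoA carboxylase, averaged 217 ± 17.84 TPM in CK plants at 25°C, 41.7 ± 1.54 in Si plants at 25°C, 142 ± 7.14 in CK plants at 28°C, and 44.1 ± 0.696 in Si plants at 28°C (SD, n = 3), with an interaction of 0.69 ± 0.13 (SE, adjusted p = 0.0058). ALDH6B2, methylmalonate semialdehyde dehydrogenase, averaged 210.0 ± 9.42 TPM in CK plants at 25°C, 63.6 ± 2.81 in Si plants at 25°C, 133 ± 6.27 in CK plants at 28°C, and 63.3 ± 2.03 in Si plants at 28°C (SD, n = 3), with 0.65 ± 0.09 (SE, adjusted p = 0.0013). In these 3 genes CK was lower at 28°C than at 25°C and Si was nearly level. Interactions of E1A1, MCCA, ETFQO, and CHY1 were 0.92 ± 0.26, 0.87 ± 0.24, 0.53 ± 0.15, and 0.28 ± 0.07. E1A1 and MCCA were called in only 2 and 2 of the 12 fits with 1 sample left out, with adjusted p up to 0.12 and 0.09, the first without Si replicate 1 at 25°C, and ETFQO and CHY1 in 2 and 6.

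Of 19 sugar starvation and dark-inducible genes, 5 were higher (26.3%, beside 3.27% of all genes) and none lower, with a median of 0.46 and 18 positive values. ASN1 (AT3G47340), asparagine synthetase, was at 2006, 2170.0, and 1761 TPM in CK plants at 25°C, 10.8, 12.1, and 18.6 in Si plants at 25°C, 925, 981, and 1111 in CK plants at 28°C, and 17.9, 19.5, and 22.7 in Si plants at 28°C. This is the deepest repression among the named genes, -7.09 at 25°C and -5.58 at 28°C, with -3.86 at 22°C. SEN1 (AT4G35770), a gene of darkness and senescence, was at 5791, 5642, and 4823 TPM in CK plants at 25°C, 97.2, 162, and 211 in Si plants at 25°C, 2060.0, 2231, and 2101 in CK plants at 28°C, and 104, 151, and 220.1 in Si plants at 28°C. In both genes CK at 28°C was below CK at 25°C, and Si overlapped between temperatures. Interactions of 1.51 ± 0.41 (SE, adjusted p = 0.034) and 1.36 ± 0.39 (SE, adjusted p = 0.045) were kept in 3 and 2 of the 12 fits with 1 sample left out, with adjusted p up to 0.09 and 0.11. DIN3 (AT3G06850), the E2 subunit of the branched-chain keto acid dehydrogenase, was at 125, 141, and 122 TPM in CK plants at 25°C, 22.8, 23.5, and 23.7 in Si plants at 25°C, 65.2, 66.5, and 77.1 in CK plants at 28°C, and 25.4, 25.8, and 28 in Si plants at 28°C, and its call, 1.06 ± 0.22 (SE, adjusted p = 0.01), held in all 12. DIN4, the E1 beta subunit of the same complex, had 0.71 ± 0.17 (SE, adjusted p = 0.018), called in 11 of these fits, and DRM1, a dormancy-associated gene, had 0.47 ± 0.10 (SE, adjusted p = 0.011). ASN1 and DIN3 each overlap a gene on the opposite strand.

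LHCB3 (AT5G54270), a subunit of the outer light-harvesting trimers of photosystem II, stood apart from its list. It was the only higher gene of 20 tested, 5% beside 3.27% of all genes. It was at 1389, 1493, and 1222 TPM in CK plants at 25°C, 288, 281, and 291 in Si plants at 25°C, 814, 873, and 804 in CK plants at 28°C, and 367, 463, and 407 in Si plants at 28°C. S. indica lowered it at both temperatures, without overlap, and the interaction of 1.23 ± 0.17 (SE, adjusted p = 0.0012) reflects a smaller gap at 28°C, where CK was lower and Si higher than at 25°C. At 22°C the effect was -2.46. Among the other 19 light-harvesting genes none was higher and 1, LHCA5, was lower (-0.33 ± 0.08 (SE, adjusted p = 0.022)), a call lost with median-of-ratios scaling (adjusted p = 0.088) and when CK replicate 2 or Si replicate 1 of 25°C or the third Si replicate of 28°C was left out, with adjusted p up to 0.062. PIF4 (AT2G43010) was at 52.5, 53.2, and 55.8 TPM in CK plants at 25°C, 24.9, 22.5, and 24.1 in Si plants at 25°C, 57.4, 62.9, and 63.2 in CK plants at 28°C, and 34.9, 41.5, and 42.6 in Si plants at 28°C. Si was below CK at both temperatures, Si at 28°C was above Si at 25°C, and the interaction was 0.53 ± 0.13 (SE, adjusted p = 0.025), called in 8 of the 12 fits with 1 sample left out. The other called gene of the 23 tested for thermomorphogenesis was EXPA8 (AT2G40610), an expansin that loosens cell walls, at 22.8, 23, and 24.3 TPM in CK plants at 25°C, 47.4, 44.8, and 51.2 in Si plants at 25°C, 43.6, 43.2, and 41.4 in CK plants at 28°C, and 37, 46, and 39.5 in Si plants at 28°C. Its interaction was -1.07 ± 0.22 (SE, adjusted p = 0.01), since Si exceeded CK at 25°C but not at 28°C. At 22°C its effect was 1.12. The median of the list was -0.05, and its higher and its lower gene are 4.35% each, beside 3.27% and 5.32% of all genes.

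Of 15 clock genes tested, 3 were higher (20%, beside 3.27% of all genes) and none lower, with a median of 0.27. All 3 were lower in Si than in CK at both temperatures. PRR7 (AT5G02810), a pseudo-response regulator that represses the morning loop, was at 188, 182, and 169 TPM in CK plants at 25°C, 44.3, 41.7, and 37.9 in Si plants at 25°C, 157, 161, and 151 in CK plants at 28°C, and 57.2, 61.6, and 60.2 in Si plants at 28°C. LNK2 (AT3G54500), a coactivator of afternoon genes, was at 48.3, 44, and 37.9 TPM in CK plants at 25°C, 11.3, 11, and 9.61 in Si plants at 25°C, 43.8, 44.4, and 39.2 in CK plants at 28°C, and 18.24, 19.4, and 19.9 in Si plants at 28°C. CK overlapped between temperatures for LNK2, and in both genes the Si samples at 28°C lay above those at 25°C, with interactions of 0.72 ± 0.11 (SE, adjusted p = 0.002) and 0.82 ± 0.13 (SE, adjusted p = 0.0031). RVE4 (AT5G02840), an activating MYB factor of the clock, had 0.53 ± 0.10 (SE, adjusted p = 0.0067). The hour of harvest is not given in the sources used here, and LNK2 overlaps genes on the opposite strand.

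**Figure D3:**
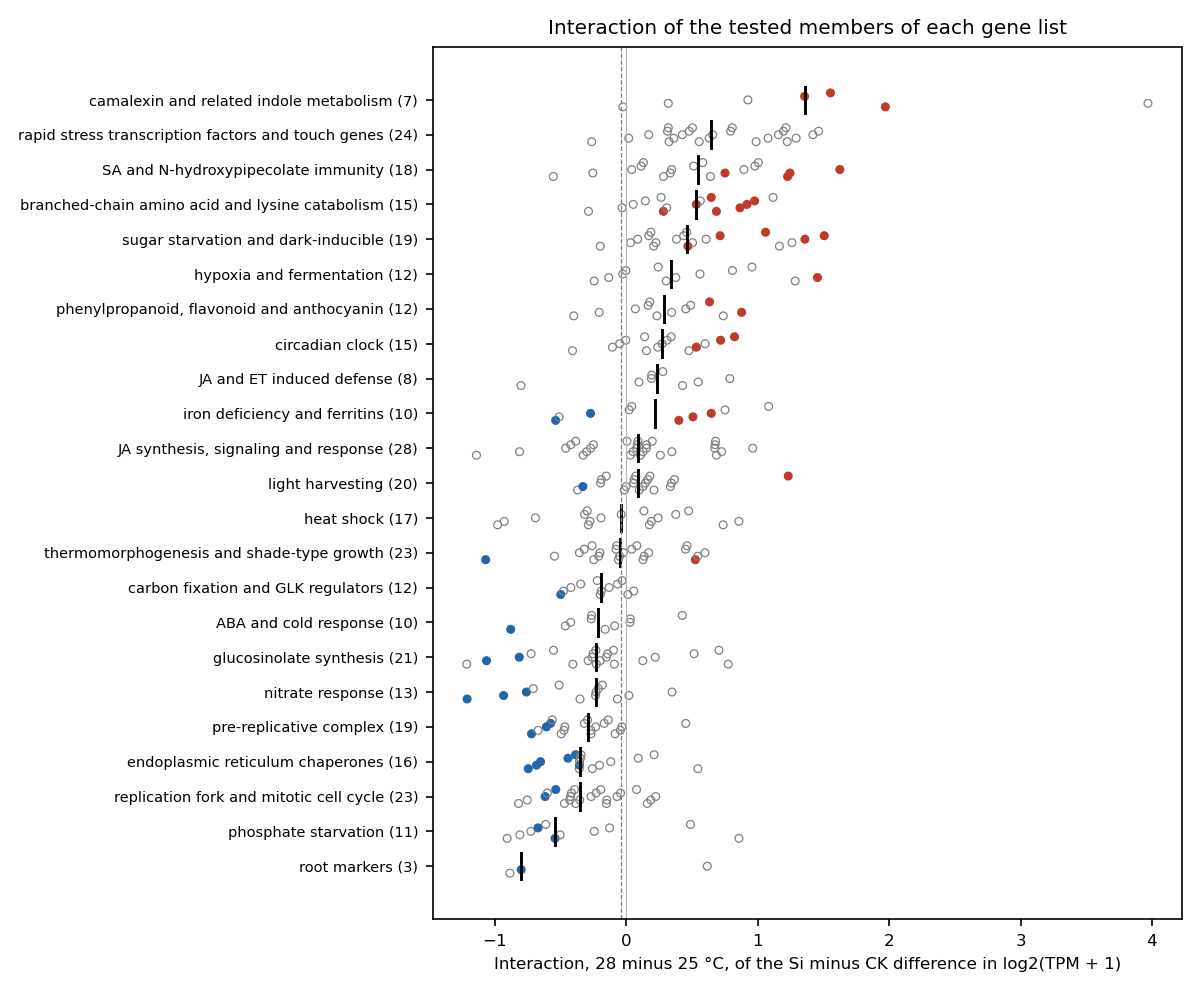
Interaction (horizontal axis, log2 scale) of every tested member of the 23 gene lists, ordered by the list median (black bar), with called genes filled in red (higher) or blue (lower) and the number tested in parentheses. The dashed line is the median of all genes, -0.04. The camalexin list is at the top with a median of 1.36, and only 3 root markers were tested.

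Smaller sets among the higher genes included phenylpropanoid and iron genes. C4H (AT2G30490), an early enzyme of phenylpropanoids, was at 54, 59.6, and 61.5 TPM in CK plants at 25°C, 53.5, 61.5, and 63.1 in Si plants at 25°C, 59.1, 63.2, and 68.1 in CK plants at 28°C, and 99, 94.8, and 108 in Si plants at 28°C. Only Si at 28°C stood apart, and the interaction of 0.63 ± 0.15 (SE, adjusted p = 0.018) was lost without Si replicate 1 at 25°C (adjusted p = 0.053). CHS (AT5G13930), chalcone synthase at the entry to flavonoids, had 0.88 ± 0.23 (SE, adjusted p = 0.029), called in 5 of the 12 fits with 1 sample left out. C4H and CHS were the called members of 12 tested (16.7%, beside 3.27% of all genes). SAD6 (AT1G43800), a fatty acid desaturase of the hypoxia list, was at 0.07, 0, and 0.04 TPM in CK plants at 25°C, 0.08, 0.31, and 0.16 in Si plants at 25°C, 0, 0.04, and 0.14 in CK plants at 28°C, and 2.12, 2.27, and 2.53 in Si plants at 28°C, with 1.45 ± 0.21 (SE, adjusted p = 0.0016). It was the only one of 12 hypoxia genes called. It reached 1 TPM only in Si at 28°C and passed the filter through that group alone. Without it the list has no call. With a pseudocount of 0.1 its interaction was 3.00. Of 10 iron genes, 3 were higher and 2 lower (30% and 20%, beside 3.27% and 5.32% of all genes). PYE and BTS, regulators of the iron deficiency response, had 0.65 ± 0.16 (SE, adjusted p = 0.022) and 0.51 ± 0.11 (SE, adjusted p = 0.013), and FRO3, a mitochondrial ferric reductase, had 0.40 ± 0.10 (SE, adjusted p = 0.029), called in 6 of the 12 fits with 1 sample left out. The ferritins FER3 and FER4, which store iron, had -0.54 ± 0.13 (SE, adjusted p = 0.019) and -0.27 ± 0.07 (SE, adjusted p = 0.032). FER3 lost its call without Si replicate 1 at 28°C (adjusted p = 0.051), FER4 in all but 3 of the 12 fits and with median-of-ratios scaling (adjusted p = 0.15), and PYE when CK replicate 2 or Si replicate 1 of 25°C or the first CK replicate of 28°C was left out (adjusted p up to 0.062).

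Among leading genes, the largest lower interactions included a pair of arabinogalactan proteins, the glycoproteins of the cell surface. FLA1 (AT5G55730), a fasciclin-like arabinogalactan protein, was at 2.37, 4.32, and 3.52 TPM in CK plants at 25°C, 26.6, 25.6, and 26.5 in Si plants at 25°C, 12.9, 14.6, and 12.7 in CK plants at 28°C, and 29.2, 35.7, and 30.7 in Si plants at 28°C. Si was above CK at both temperatures, and CK at 28°C was well above CK at 25°C, so that the gap narrowed, with -1.46 ± 0.23 (SE, adjusted p = 0.0024). AGP4 (AT5G10430), a classical arabinogalactan protein, was at 8.21, 11.5, and 11.9 TPM in CK plants at 25°C, 34.2, 31.7, and 35.4 in Si plants at 25°C, 22.8, 21.1, and 29.7 in CK plants at 28°C, and 25.5, 34.2, and 23.8 in Si plants at 28°C. CK and Si stood apart at 25°C and overlapped at 28°C, with -1.44 ± 0.28 (SE, adjusted p = 0.008). AT5G07030, an aspartyl protease, was at 1.57, 1.35, and 1.96 TPM in CK plants at 25°C, 25.8, 23.4, and 26 in Si plants at 25°C, 8.94, 10.8, and 10.07 in CK plants at 28°C, and 28.6, 40.9, and 34.2 in Si plants at 28°C, and the interaction was -1.62 ± 0.18 (SE, adjusted p = 0.00062). Levels were higher at 28°C in both treatments, with the larger change in CK. AT4G16880, a leucine-rich repeat protein, was at 0, 0, and 0.48 TPM in CK plants at 25°C, 8.68, 9.84, and 6.24 in Si plants at 25°C, 5.12, 5.39, and 5.1 in CK plants at 28°C, and 7.55, 6.76, and 13.3 in Si plants at 28°C. It was listed at 0 in 2 CK samples at 25°C, and at 28°C all CK samples lay just below the Si samples, with -2.34 ± 0.45 (SE, adjusted p = 0.0071). Since it is near 0 in a group its value depends on the pseudocount. It was -4.77 with a pseudocount of 0.1.

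The putative membrane lipoprotein AT4G29030 and the uncharacterized AT4G11211 had interactions of -1.51 ± 0.28 (SE, adjusted p = 0.0056) and -1.51 ± 0.24 (SE, adjusted p = 0.0031). AT4G22485, a lipid-transfer protein, was at 27.4, 28.9, and 38.9 TPM in CK plants at 25°C, 137, 129, and 156 in Si plants at 25°C, 61.3, 50.2, and 71 in CK plants at 28°C, and 52.7, 86.7, and 91.8 in Si plants at 28°C. Unlike FLA1, it was lower in Si at 28°C than in Si at 25°C, with -1.82 ± 0.33 (SE, adjusted p = 0.0051). AT4G22475, with -1.55 ± 0.31 (SE, adjusted p = 0.0081), overlaps AT4G22485 on the opposite strand, so that both values may come from the same reads. AGP4 overlaps an opposite gene too. The calls of these 8 lower genes held with each of the 12 samples left out.

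Cell wall families, picked by product name after the values were seen, leaned the same way. Of 37 arabinogalactan proteins, 13 were lower and 1 higher (35.1% and 2.7%, beside 5.32% and 3.27% of all genes). Their median interaction was -0.61, and the counts were the same with median-of-ratios scaling. AGP21 (AT1G55330) was at 141, 106, and 132 TPM in CK plants at 25°C, 272, 221, and 249 in Si plants at 25°C, 262, 242, and 254 in CK plants at 28°C, and 207, 216, and 195 in Si plants at 28°C. The order of CK and Si turned between temperatures, with an effect of 0.97 at 25°C and -0.30 at 28°C and an interaction of -1.27 ± 0.15 (SE, adjusted p = 0.00087). Of 16 expansins, 6 were lower and 1 higher (37.5% and 6.25%, beside 5.32% and 3.27% of all genes), with a median of -0.76. The higher expansin, EXPA9, had 0.69 ± 0.14 (SE, adjusted p = 0.0084). EXPB3 had -0.95 ± 0.18 (SE, adjusted p = 0.0071) and EXPA6 -0.76 ± 0.18 (SE, adjusted p = 0.018). Among GDSL lipases, AT3G16370 was at 86.3, 84.5, and 86.8 TPM in CK plants at 25°C, 226, 218, and 216 in Si plants at 25°C, 175, 167, and 179 in CK plants at 28°C, and 217, 233, and 211 in Si plants at 28°C. The Si samples overlapped between temperatures, while CK was higher at 28°C without overlap, and the interaction was -1.01 ± 0.13 (SE, adjusted p = 0.00099).

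Of 16 chaperones of the endoplasmic reticulum, which fold secreted proteins, 6 were lower (37.5%, beside 5.32% of all genes) and none higher. Their median was -0.35, and 4 were lower with quantile normalization. BIP1 (AT5G28540), the luminal HSP70, was at 51.4, 44.5, and 61.9 TPM in CK plants at 25°C, 173, 169, and 157 in Si plants at 25°C, 101, 96.3, and 107 in CK plants at 28°C, and 192, 187, and 193 in Si plants at 28°C, and CNX1 (AT5G61790), the lectin chaperone calnexin, was at 47.9, 44.8, and 58 TPM in CK plants at 25°C, 144, 136, and 136 in Si plants at 25°C, 85.7, 94.8, and 101 in CK plants at 28°C, and 161, 163, and 167 in Si plants at 28°C. In both, CK was higher at 28 than at 25°C, the change of Si was not called, and CK and Si did not overlap. Their interactions were -0.75 ± 0.19 (SE, adjusted p = 0.026) and -0.65 ± 0.16 (SE, adjusted p = 0.02), called in 6 and 9 of the 12 fits with 1 sample left out, with adjusted p up to 0.067 and 0.055. BIP2 had -0.68 ± 0.20 (SE, adjusted p = 0.042), called in 1 of these fits, and its transcript is 97.2% identical to that of BIP1, so that the reads of both may have been split. CRT1a, SHD, and PDIL1-2, a calreticulin, an HSP90, and a disulfide isomerase, had -0.44 ± 0.12, -0.39 ± 0.10, and -0.36 ± 0.11, called in 3, 3, and 1 of these fits. PDIL1-2 lost its call with median-of-ratios scaling (adjusted p = 0.088). None of 17 heat shock genes was called, and their median was -0.04.

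DNA replication genes had mostly negative interactions. Of 19 tested genes of the pre-replicative complex, which licenses origins, 3 were lower (15.8%, beside 5.32% of all genes), none higher, and 18 had a negative value, with a median of -0.29. With quantile normalization 1 was lower, since ETG1 (adjusted p = 0.057) and MCM7 (0.062) lost their calls, and the median was -0.66 with a pseudocount of 0.1. MCM5 (AT2G07690), a subunit of the helicase ring, was at 1.92, 2.3, and 2.15 TPM in CK plants at 25°C, 10.9, 10.2, and 10.9 in Si plants at 25°C, 4.63, 4.88, and 4.94 in CK plants at 28°C, and 12.7, 13.5, and 13.7 in Si plants at 28°C. CK rose with temperature by more than Si, and the interaction was -0.61 ± 0.11 (SE, adjusted p = 0.0053). MCM7 (AT4G02060) had -0.58 ± 0.14 (SE, adjusted p = 0.021), and ETG1 (AT2G40550), which binds the helicase, had -0.72 ± 0.20 (SE, adjusted p = 0.04). They were called in 7 and 3 of the 12 fits with 1 sample left out, with adjusted p up to 0.059 and 0.1. MCM2, MCM4, and ORC2 had -0.56 ± 0.21, -0.23 ± 0.15, and -0.32 ± 0.20 and were not called, with adjusted p of 0.11, 0.37, and 0.36. Of 23 genes of the replication fork and mitosis, 2 were lower, or 8.70%. This is near the 5.32% of all genes. RNR1 (AT2G21790), the large subunit of ribonucleotide reductase, was at 7.81, 6.98, and 8.75 TPM in CK plants at 25°C, 26.4, 25.4, and 28 in Si plants at 25°C, 12.6, 13.1, and 13.3 in CK plants at 28°C, and 25.1, 31, and 26.8 in Si plants at 28°C. Si overlapped between temperatures while CK did not, with -0.62 ± 0.12 (SE, adjusted p = 0.0077). LIG1, the replicative DNA ligase, had -0.54 ± 0.10 (SE, adjusted p = 0.0063).

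Ribosomal proteins, a family picked by product name, showed many small interactions. Of 315 tested, cytosolic and organellar, 56 were lower and 4 higher (RPL18AA, AT3G13580, AT5G24490, and AT5G39600), with a median of -0.20. With median-of-ratios scaling 31 were lower and 4 higher. RPL24A (AT2G36620) was at 71.3, 61.9, and 83.7 TPM in CK plants at 25°C, 199, 177, and 188 in Si plants at 25°C, 104, 107, and 120.3 in CK plants at 28°C, and 179, 189, and 189.6 in Si plants at 28°C. CK was higher at 28°C without overlap and Si overlapped between temperatures, with an interaction of -0.63 ± 0.14 (SE, adjusted p = 0.015). The family median change from 25 to 28°C was 0.19 in CK and 0.03 in Si, but not all lower members moved like RPL24A. In the plastid proteins PSRP4 and PSRP6 this change was -0.07 and 0.002 in CK and -0.38 and -0.33 in Si. PSRP4 lost its call with median-of-ratios scaling (adjusted p = 0.15). Ribosomal proteins come as near copies, and 5 of the called transcripts had another transcript with at least 97.4% identity. AT1G58684 and AT1G59359, both among the 56, are 100% identical and have the same TPM in every sample, so that the same value is counted for each. RPL18AA, higher, and AT1G29965, lower, are 100% identical over 54.1% and 81.3% of their transcripts. Their opposite calls may therefore come from a split of shared reads.

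Promoters of 3 lower genes from these sets are shown because they hold the site II element TGGGCC, known from promoters of ribosomal and cell cycle genes. They were taken as above, with site II (TGGGCC or GGCCCA) in capitals, and in RNR1 also the telo-box AAACCCTA.
CNX1, chr5:24829901-24830150, minus strand: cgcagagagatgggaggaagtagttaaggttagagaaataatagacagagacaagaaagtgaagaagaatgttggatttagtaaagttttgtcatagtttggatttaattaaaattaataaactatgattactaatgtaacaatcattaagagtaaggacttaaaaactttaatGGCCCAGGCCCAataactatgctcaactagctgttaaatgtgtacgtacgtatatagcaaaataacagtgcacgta
UPM1, chr5:16365650-16365899, plus strand: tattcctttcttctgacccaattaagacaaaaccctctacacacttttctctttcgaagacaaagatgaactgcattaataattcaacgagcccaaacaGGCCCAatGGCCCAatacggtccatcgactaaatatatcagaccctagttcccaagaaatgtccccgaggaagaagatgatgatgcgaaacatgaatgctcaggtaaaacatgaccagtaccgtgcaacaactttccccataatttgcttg
RNR1, chr2:9293011-9293260, plus strand: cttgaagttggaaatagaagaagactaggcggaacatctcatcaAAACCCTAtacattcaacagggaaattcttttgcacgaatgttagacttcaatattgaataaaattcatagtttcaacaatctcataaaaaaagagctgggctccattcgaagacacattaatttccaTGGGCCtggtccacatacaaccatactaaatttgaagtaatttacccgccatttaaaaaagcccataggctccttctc
CNX1 and UPM1 each hold 2 copies close together, and RNR1 holds 1 site II and 1 telo-box. The lower genes with the largest interactions named above, FLA1 and AGP4 among them, all lack site II in this window. Of other lower genes of these sets, MCM5 and BIP2 also hold it, while BIP1, NIR1, LBD39, ETG1, MCM7, and LIG1 do not. The higher genes SEN1 and MCCA hold it as well.

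Over all promoters, 9 motifs were counted on both strands in the same 250 bases. The W-box core was in 54.7% of the promoters of higher genes, 39.9% of those of lower genes, 44.8% of all tested, and 43.9% of all 37897 genes with a window. Site II was in 9.83%, 22.0%, 16.6%, and 11.4% of these. Without ribosomal proteins, 21.1% of lower genes and 16.1% of tested genes held site II, and among ribosomal proteins it was in 37.5% of the 56 lower ones and in 45.4% of all 315. The telo-box was in 1.84% of higher, 4.61% of lower, and 3.62% of tested genes. Shares of the G-box CACGTG (6.91, 7.52, and 7.00%), the GCC-box GCCGCC (12 of 651, 20 of 1064, and 415 of 19760 promoters), the evening element AAATATCT (5.53, 5.64, and 4.93%), the sugar-repressive TTATCC (14.6, 12.8, and 13.4%), the ABRE core ACGTGG (10.14, 8.74, and 8.64%), and the heat shock element GAANNTTC (10.14, 7.80, and 9.41%) lay closer together. The G-box and the ABRE core can overlap. A match is only a match of letters.

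**Figure D4:**
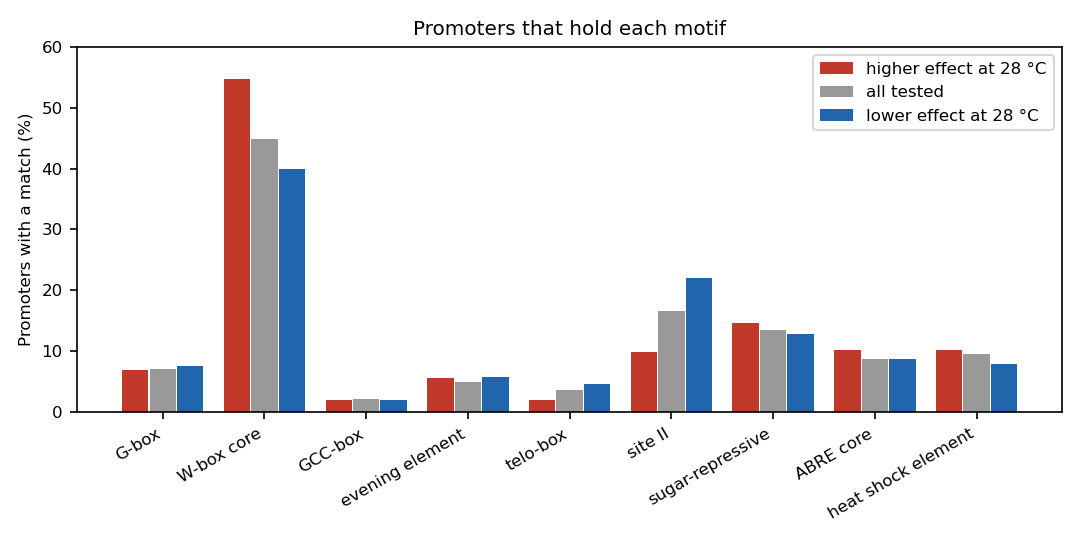
Percent of promoters with at least 1 match (bars from 0) for the 651 higher genes with a window (red), the 19760 tested genes (grey), and the 1064 lower genes (blue). The W-box core is most frequent in red and site II in blue.

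Photosystem subunits and plastid transcription proteins, again families picked by name, had small values that were mostly negative. Of 40 photosystem subunits, 17 were lower (42.5%, beside 5.32% of all genes) and none was higher, beside 3.27%. The interaction was negative in 39 of them, with a median of -0.26 beside -0.04 over all genes. PSAH2 (AT1G52230), of photosystem I, was at 742, 764, and 718 TPM in CK plants at 25°C, 1025, 882, and 868 in Si plants at 25°C, 875, 893, and 809 in CK plants at 28°C, and 735, 788, and 767 in Si plants at 28°C. Si was above CK at 25°C and below CK at 28°C, with -0.49 ± 0.09 (SE, adjusted p = 0.005). Of 16 proteins of the plastid transcriptionally active chromosome, 8 were lower (50%, beside 5.32% of all genes) and none higher. An example is PTAC12 (AT2G34640) with -0.50 ± 0.11 (SE, adjusted p = 0.012). These counts depended on the scaling, and with median-of-ratios factors 7 and 4 were lower. RBCS1B (AT5G38430), a small subunit of Rubisco, was the only called gene of 12 for carbon fixation, at 7311, 6947, and 7584 TPM in CK plants at 25°C, 11238, 11604, and 11392 in Si plants at 25°C, 7985, 7259.6, and 8276 in CK plants at 28°C, and 8746, 8468, and 8855 in Si plants at 28°C. Its interaction was -0.50 ± 0.10 (SE, adjusted p = 0.0065), and with quantile normalization the adjusted p was 0.45. This gene is 8.33% of its list, near the 5.32% of all genes that were lower.

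Sulfolipid synthesis, which spares phosphate in plastid membranes, was represented by the enzymes SQD1 and SQD2. SQD1 (AT4G33030) was at 54, 53.5, and 49.4 TPM in CK plants at 25°C, 85.1, 82.5, and 84.8 in Si plants at 25°C, 64.5, 69, and 64 in CK plants at 28°C, and 72.3, 72.2, and 72.4 in Si plants at 28°C, and SQD2 (AT5G01220) was at 59.7, 66.5, and 61.8 TPM in CK plants at 25°C, 74.7, 68.2, and 65.8 in Si plants at 25°C, 90.2, 77.5, and 71.3 in CK plants at 28°C, and 56.7, 51.9, and 55.9 in Si plants at 28°C. For SQD2 every Si sample at 28°C was below every Si sample at 25°C, and the effect went from 0.15 to -0.52. The interactions were -0.54 ± 0.09 (SE, adjusted p = 0.0029) and -0.67 ± 0.13 (SE, adjusted p = 0.0081), and these were the called genes of 11 for phosphate starvation, with a median of -0.54. Of 21 glucosinolate genes, MYB28 and MYB34, the regulators of aliphatic and indolic glucosinolates, were lower, with -1.06 ± 0.29 (SE, adjusted p = 0.034) and -0.81 ± 0.22 (SE, adjusted p = 0.035). These 2 genes are 9.52% of the list, near the 5.32% of all genes. They were called in 2 and 5 of the 12 fits with 1 sample left out, with adjusted p up to 0.091 and 0.098. RAB18 (AT5G66400), a dehydrin that abscisic acid induces, was at 136, 142, and 130.0 TPM in CK plants at 25°C, 43.7, 46.5, and 52.3 in Si plants at 25°C, 109.8, 93.2, and 97.5 in CK plants at 28°C, and 17.56, 16.6, and 21.2 in Si plants at 28°C. Unlike most lower genes it was repressed at both temperatures, more at 28°C, with -0.88 ± 0.15 (SE, adjusted p = 0.0034). It was the only call among 10 ABA and cold genes, 10% beside 5.32% of all genes. PYK10 (AT3G09260), a beta-glucosidase of ER bodies and a root marker here, was at 272, 259, and 264 TPM in CK plants at 25°C, 505, 549.9, and 545 in Si plants at 25°C, 742, 770.1, and 773 in CK plants at 28°C, and 878, 874, and 886 in Si plants at 28°C, with -0.80 ± 0.14 (SE, adjusted p = 0.004). It rose with temperature in both treatments, while the 13 root markers under the filter stayed at or below 1.19 TPM. Of the other root markers tested, CASP1 averaged 1.91 and 5.15 TPM in CK and 1.21 and 1.47 in Si at 25 and 28°C. NRT2.1 averaged 0.82 and 0.80 TPM in CK and 3.87 and 6.41 in Si. Neither was called. Of the other named genes, MCCA, CHS, LHCB3, LHCA5, MCM7, and RAB18 overlap a gene on the opposite strand, and so does PYK10.

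**Figure D5:**
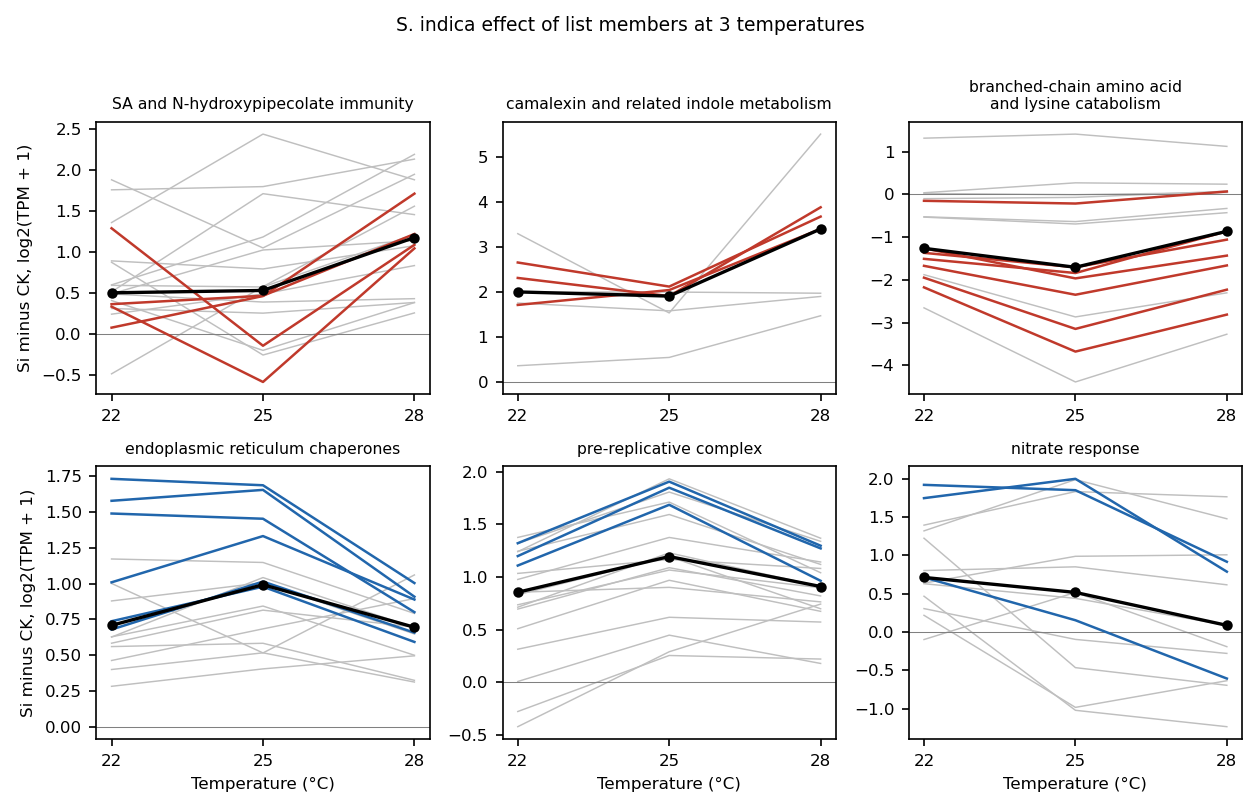
Si minus CK difference (vertical axis, log2(TPM + 1)) at 22, 25, and 28°C for the tested members of 6 lists, called genes in red (higher) or blue (lower), other genes in grey, and the list median in black. The median of the SA list goes from 0.53 at 25°C upward, and that of the pre-replicative complex from 1.19 downward.

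Jasmonate genes and rapid stress regulators gave no calls. None of 28 tested genes of jasmonate synthesis, signaling, and response was called, with a median of 0.09, and none of 8 defense genes induced by jasmonate and ethylene together, with a median of 0.24. Of 24 rapidly induced transcription factors and touch genes, 23 had a positive value and the median was 0.64, higher than in the SA list. Their errors were wide, as in WRKY40 at 1.22 ± 0.90 (adjusted p = 0.44) and ERF5 at 0.99 ± 0.84 (adjusted p = 0.52), and the smallest adjusted p, 0.11, belonged to WRKY53 at 1.29 ± 0.48. The sign of the jasmonate median was not stable, since 4 of the 12 fits with 1 sample left out turned it, which lacked CK replicate 3 of 25°C, Si replicate 1 of 25°C, CK replicate 1 of 28°C, or Si replicate 3 of 28°C.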

How the data were processed

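The authors deposited 1 table of TPM for 33039 genes in 18 samples, each of its 18 value columns matched to 1 sample. According to the study's methods, clean reads were mapped to TAIR10 and quantified with RSEM, whereas HISAT2 and StringTie are named in the sample protocol. TPM are scaled to a fixed total, so that the depth of each sample, and any counting error, is unknown, and genes listed at 0 are described as such. The study used DESeq2 on counts that were not used here.

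Deposited TPM were transformed to log2(TPM + 1) for genes that reached 1 TPM in 3 or more samples. With limma 3.58.1 in R 4.3.3, 6 group means with a variance trend were fitted to all 18 samples (12 residual degrees of freedom), two-sided, with Benjamini-Hochberg adjustment over 20044 genes and calls at an adjusted p of at most 0.05. The code was tested on simulated data. Gene names and promoters came from RefSeq TAIR10.1, and near copies (90% identity over 50% of a transcript) from blastn 2.17.0.

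The gene lists and tests were chosen with earlier results of these data known. Named genes are, per direction, the 8 largest interactions with a mean of at least 5 TPM, at least 200 bases, no group listed at 0, and a call with each sample left out. Up to 3 called genes per list and 4 genes named in the study were added. Family members and genes named beyond this were chosen after their values were seen. Alternatives were other pseudocounts, filters, scalings, a fit of 4 groups, a replicate block, a threshold on the interaction, and leaving out each of the 12 samples.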

Additional observations from a re-analysis of the deposited data

Results flagged for a closer look

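The S. indica effect differed between 28 and 25°C, by a test of the difference itself, for 655 genes that were higher and 1067 that were lower. Among the named genes, an interaction above 0 that was called in all 12 fits with 1 sample left out was found for AT4G12500 (3.02), AT2G43620 (2.62), NRT2.5 (2.59), FRK1 (2.55), AT1G21313 (2.54), IOS1 (2.37), AT5G44585 (2.29), MLO12 (2.17), FMO1 (1.25), CBP60g (1.23), LKR (0.98), GSTF6 (1.36), LNK2 (0.82), PRR7 (0.72), RVE4 (0.53), SAD6 (1.45), BTS (0.51), LHCB3 (1.23), and DIN3 (1.06). Interactions below 0 that held in all 12 were those of AT4G16880 (-2.34), AT4G22485 (-1.82), AT5G07030 (-1.62), AT4G22475 (-1.55), AT4G29030 (-1.51), AT4G11211 (-1.51), FLA1 (-1.46), AGP4 (-1.44), RAB18 (-0.88), RBCS1B (-0.50), NIR1 (-1.21), UPM1 (-0.93), SQD2 (-0.67), SQD1 (-0.54), MCM5 (-0.61), RNR1 (-0.62), LIG1 (-0.54), PYK10 (-0.80), and EXPA8 (-1.07). Calls that were lost with 1 or more samples left out were PBS3 (1.62), E1A1 (0.92), MCCA (0.87), CYP71A12 (1.97), PAD3 (1.55), PYE (0.65), CHS (0.88), C4H (0.63), ASN1 (1.51), SEN1 (1.36), and PIF4 (0.53) among the higher genes and BIP1 (-0.75), BIP2 (-0.68), CNX1 (-0.65), MYB28 (-1.06), MYB34 (-0.81), FER3 (-0.54), LHCA5 (-0.33), LBD39 (-0.76), ETG1 (-0.72), and MCM7 (-0.58) among the lower genes. FMO1 and SAD6 passed the filter on low values through Si at 28°C alone. No explanation was tested for these differences.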

How the results depend on the processing

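With 1 sample left out, from 341 to 571 genes were higher and from 520 to 1045 were lower. The counts moved by over 1.5 times without Si replicate 1 at 25°C (341 and 520), Si replicate 3 at 28°C (389 and 640), CK replicate 1 at 25°C (416 and 639), Si replicate 1 at 28°C (426 and 609), CK replicate 2 at 28°C (435 and 644), and, for lower genes, CK replicate 2 at 25°C (621), and the fits had 1 residual degree of freedom less. In all 12 such fits 296 higher and 456 lower genes were called. A threshold of 1 on the absolute interaction left 202 and 80. The other alternatives gave between 581 and 812 higher and between 751 and 1361 lower genes, the ends being a pseudocount of 0.1 and the fit of 4 groups for the first, and median-of-ratios scaling and the fit of 4 groups for the second. The interaction of each of the 62 named genes kept its sign under every alternative in which it was tested, and with a filter of 5 TPM in 3 of 18 samples PBS3, FMO1, SAD6, and ORC2 were not tested. Without a filter, E1A1, MCCA, PAD3, RBCS1B, BIP2, MYB28, MYB34, LBD39, ETG1, ASN1, and SEN1 lost their calls, and with quantile normalization E1A1, MCCA, RBCS1B, ETG1, MCM7, and ASN1 did. CHS lost its call with a pseudocount of 0.1 or 0.5 and SEN1 in the fit of 4 groups. With a pseudocount of 0.1 the interaction of AT4G29030 was -2.44. At an unadjusted p under 0.05, 1872 genes were higher and 2874 lower. Medians of the jasmonate, jasmonate and ethylene, heat shock, and thermomorphogenesis lists changed sign under 1 or more alternatives.

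No label says that a replicate number marks a shared batch or day, and the condition that every same-numbered pair correlates over 0.1 was not met, so that the samples were taken to share only a number. Deviations of same-numbered samples correlated between -0.05 and 0.18, with 6 of 18 pairs over 0.1, and 8 of 12 samples correlated best with their own number, a hint from the data. The median correlation was 0.06 for same-numbered and -0.02 for other pairs. With the replicate number as a block 779 genes were higher and 1188 lower, and among the named genes only ETG1 lost its call.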
